A study of Mus musculus with 53 samples.

Results

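The 33 genes described here carry glucose to pyruvate and lactate in sciatic nerve and on into the mitochondrion. They were chosen by gene symbol for their known roles, with earlier results of these data known, as 33 of the 49568 genes listed in 53 nerve samples of male C57BL/6J mice. They comprise 3 glucose transporters, 10 enzymes of the first, ATP-consuming stretch of glycolysis, 6 enzymes of its ATP-yielding stretch, 2 lactate dehydrogenase subunits, 3 monocarboxylate carriers, 3 pyruvate dehydrogenase kinases, 4 subunits of the pyruvate dehydrogenase complex and 2 subunits of the mitochondrial pyruvate carrier. Mice on a standard diet (SD) were the controls. The HFD group was fed a diet with 60% of its calories from fat from 5 weeks of age, and is the prediabetic model. The HFD-STZ group, the model of type 2 diabetes, was also given streptozotocin, a toxin of the insulin-making beta cell, at 12 weeks of age in doses of 75 and 50 mg/kg. The younger animals, aged 16 weeks, gave 5 samples of SD, 7 of HFD and 5 of HFD-STZ nerve. Those aged 24 weeks gave 8 of SD, 7 of HFD and 8 of HFD-STZ nerve, together with 7 HFD-DR and 6 HFD-STZ-DR samples from mice moved to the standard diet from 16 weeks of age for the last 8 weeks (dietary reversal, DR). All groups other than SD had therefore eaten the high-fat diet, and no group received streptozotocin on the standard diet.

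Glucose enters cells through facilitative transporters, is trapped by hexokinase and is split into pyruvate by the glycolytic enzymes. Pyruvate is then either reduced to lactate by lactate dehydrogenase or carried into mitochondria and oxidised by the pyruvate dehydrogenase complex, which the PDK kinases switch off by phosphorylation. In peripheral nerve, Schwann cells are known for an active glycolysis and for passing lactate to axons through monocarboxylate carriers, among which MCT1, the product of Slc16a1, is the main one of glia.

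The promoters of 5 members are shown because their transcripts differed in how they followed the muscle and fat content of the samples, as given further on. Each is the 250 bases before a transcription start listed by RefSeq for GRCm38.p6, 5′ to 3′ on the strand of the gene. Capitals mark ACGTG, the core of the site bound by hypoxia-inducible factors, on either strand, and CACGTG, the E-box read by the glucose sensor ChREBP and by MYC, which contains it.
Ldha, chr7:46845554-46845803, + strand: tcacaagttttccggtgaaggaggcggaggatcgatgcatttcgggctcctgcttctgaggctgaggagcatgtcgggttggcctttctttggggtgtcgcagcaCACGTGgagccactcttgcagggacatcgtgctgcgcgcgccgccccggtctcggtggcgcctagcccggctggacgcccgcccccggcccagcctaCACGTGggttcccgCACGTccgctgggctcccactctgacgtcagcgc
Hk2, chr6:82774455-82774704, - strand: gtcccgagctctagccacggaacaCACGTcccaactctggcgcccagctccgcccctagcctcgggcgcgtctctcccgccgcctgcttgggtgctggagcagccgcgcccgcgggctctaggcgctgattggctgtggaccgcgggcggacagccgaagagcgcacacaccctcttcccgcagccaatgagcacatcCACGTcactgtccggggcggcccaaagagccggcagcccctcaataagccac
Slc16a3, chr11:120948817-120949066, + strand: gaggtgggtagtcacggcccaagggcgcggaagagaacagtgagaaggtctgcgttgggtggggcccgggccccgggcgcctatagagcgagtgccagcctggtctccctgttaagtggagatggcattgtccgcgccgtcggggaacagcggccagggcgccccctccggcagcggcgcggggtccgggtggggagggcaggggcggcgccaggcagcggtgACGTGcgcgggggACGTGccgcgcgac
Slc2a1, chr4:119108495-119108744, + strand: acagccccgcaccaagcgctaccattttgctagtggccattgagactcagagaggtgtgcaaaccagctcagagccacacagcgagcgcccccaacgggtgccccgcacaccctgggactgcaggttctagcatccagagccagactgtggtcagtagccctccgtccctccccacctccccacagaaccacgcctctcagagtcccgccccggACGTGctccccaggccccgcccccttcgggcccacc
Slc16a1, chr3:104638414-104638663, + strand: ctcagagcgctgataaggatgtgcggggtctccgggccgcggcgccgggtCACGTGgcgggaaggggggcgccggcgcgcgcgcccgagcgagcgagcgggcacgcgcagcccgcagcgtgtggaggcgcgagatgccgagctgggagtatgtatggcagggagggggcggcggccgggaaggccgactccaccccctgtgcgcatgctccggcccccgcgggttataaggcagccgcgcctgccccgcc
RefSeq listed 2 starts for Ldha, and the window of the other start held 0 matches to either motif. The Ldha window shown held 5 matches to ACGTG on the 2 strands, counting each strand of CACGTG, the Hk2, Slc16a3 and Slc16a1 windows 2 each and the Slc2a1 window 1. Promoters were listed for 30 of the 33 members, and Slc2a3, Slc2a4 and Slc16a7 were not matched. ACGTG was found in 17 of the 45 windows of members (37.8%) and in 5444 of all 32851 windows (16.6%). By gene, 14 of the 30 members had it in a window, and all 5 shown did, so the 5 do not stand for the members. Gapdh and Ldhb, which also followed the muscle or the fat score, had 0 matches. CACGTG was found in 5 of the 45 windows (11.1%) and in 6.02% of all windows. A match is a description of the letters and no evidence of binding.

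Values are the log2 figures that the authors deposited after normalizing between samples, with an unknown read depth behind them. Differences are therefore differences of log2 values, and their precision comes from the spread between samples. Schwann cell markers were high in every sample, with a mean log2 value of 7 myelinating Schwann cell genes from 16.71 to 17.74, so the markers of the labelled tissue were present. The samples differed far more in skeletal muscle, fat and blood. The erythroid score, the mean of 5 genes, ran from 6.72 to 12.64, with means of 7.59, 10.32 and 8.80 in SD, HFD and HFD-STZ mice at 16 weeks and from 9.74 to 10.68 in the groups at 24 weeks, and its part in the comparisons was not tested. The skeletal muscle score, the mean log2 value of 10 muscle genes, ran from 5.94 to 15.45. Its range was 6.00 to 13.11 in SD, 6.29 to 10.87 in HFD and 6.18 to 8.23 in HFD-STZ mice at 16 weeks. At 24 weeks it was 6.14 to 15.45 in SD, 6.37 to 13.58 in HFD, 5.94 to 10.65 in HFD-STZ, 8.28 to 14.08 in HFD-DR and 6.26 to 14.76 in HFD-STZ-DR mice. The groups thus overlapped, and no muscle gene was listed at 0 in any sample, although Tnnc2 had a mean of only 0.14. The score differed in 0 of 14 comparisons at an unadjusted p under 0.05 (2-sided exact permutation tests). The adipocyte score, the mean of 6 genes, ran from 8.51 to 12.91 in SD, 11.79 to 13.80 in HFD and 9.58 to 13.13 in HFD-STZ mice at 16 weeks, and no gene of it was listed at 0. At 24 weeks it was 10.83 to 13.48 in SD, 11.41 to 14.08 in HFD, 11.33 to 13.90 in HFD-STZ, 10.41 to 13.49 in HFD-DR and 9.07 to 12.07 in HFD-STZ-DR mice. In bulk tissue, fewer cells of a type and less RNA per cell cannot be told apart.

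The 33 members spanned a wide range of levels. To compare genes with each other, levels were divided by exon length (log2 value minus log2 of the length in kilobases). This holds only if the deposited values were not already divided by length, which no source states. Their linear values summed to between 41200000 and 49100000 in each sample, more than FPKM values can reach. On this per-length scale Ldhb, the heart-type lactate dehydrogenase subunit, was highest at 14.48, followed by Aldoa, the main aldolase, at 14.33. Ldha, the subunit that favours lactate production, stood at 12.38, Slc2a1, which encodes the glucose transporter GLUT1, at 12.24, Tpi1 at 12.16 and Pkm, pyruvate kinase, at 12.10. The lowest were Slc16a3, which encodes the lactate exporter MCT4, at 5.21, Slc16a7, which encodes MCT2, at 5.26, and Slc2a3, which encodes the neuronal transporter GLUT3, at 5.30.

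**Figure D1:**
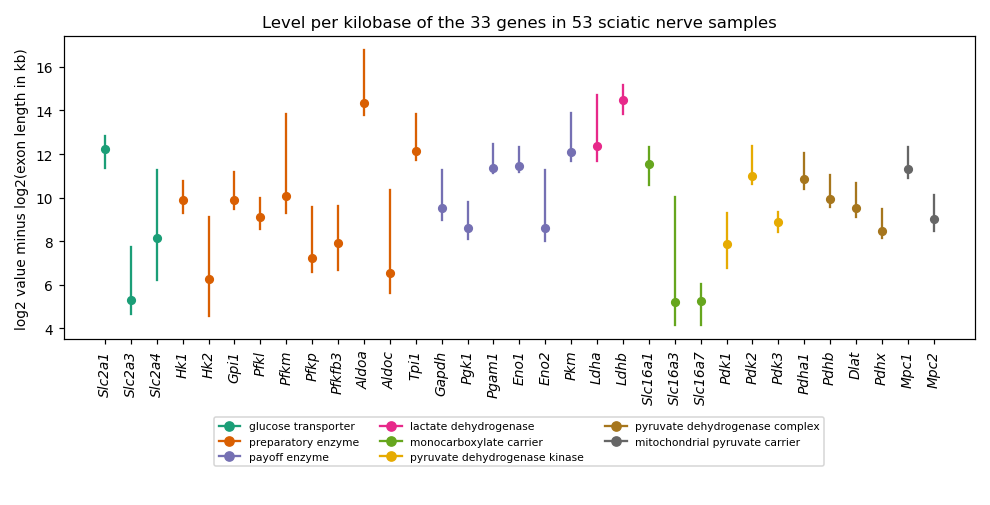
Level of each member per kilobase of exon in 53 sciatic nerve samples, as log2 value minus log2 of exon length in kilobases. Points are means over all samples and bars run from the lowest to the highest sample; Ldhb and Aldoa are highest on average, and Slc16a3, Pfkm and Eno2 have long upper ranges.

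Within each pair of isoforms, the same member was the higher per length in nearly every sample, by a margin that varied widely. GLUT1 (Slc2a1) transcript exceeded that of the insulin-responsive GLUT4 (Slc2a4) per length in 53 of 53 samples, with a mean log2 difference, GLUT4 minus GLUT1, of -4.07. Hk1, the housekeeping hexokinase, exceeded Hk2, the hexokinase of muscle and fat, in 53 of 53 samples (Hk2 minus Hk1 -3.65, from -6.21 to -0.21). Slc16a1 exceeded Slc16a3 in 53 of 53 samples (-6.35) and Pdk2 exceeded Pdk1 in 53 of 53 (-3.08). Ldhb exceeded Ldha in all but 1 of the 53 samples, and that sample, SD replicate 5 at 24 weeks, had a difference of 0.74 in favour of Ldha. Per length, Pfkm, the muscle phosphofructokinase, exceeded the liver form Pfkl in 51 of 53 samples, by 1.00 on average (median 0.68, from -0.55 to 4.95). Before division by length both averaged 11.83, so this mean margin came from their annotated exon lengths of 3340 and 6675 bases. All differences in this paragraph are values per length with no test.

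Some counts could be shared between genes. Of the 33 members, 15 shared stretches of 100 bases with another gene and 8 did so over more than 10% of their length. The share was 78.0% for Gapdh, which matched 86 other genes, 67.0% for Pgk1, 59.0% for Eno1, whose main partner is Eno1b, 39.7% for Pgam1, 19.7% for Mpc1, 16.0% for Pfkp, 12.0% for Pdha1 and 10.5% for Pdhb. Their values are uncertain to that extent.

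Levels by group were close for most members. GLUT1, encoded by Slc2a1 on chromosome 4 (119108711 to 119137983, GRCm38, as all positions), averaged 13.93 ± 0.52, 14.02 ± 0.20 and 13.95 ± 0.19 in the 16-week SD, HFD and HFD-STZ groups (log2 value, standard deviation; n as above). At 24 weeks it averaged 14.27 ± 0.30, 14.12 ± 0.33 and 13.89 ± 0.38 in those groups, and 14.14 ± 0.32 in the reversed HFD-DR group. In HFD-STZ-DR mice it ran from 13.19 through a median of 13.98 to 14.61. Its group means thus lay within 0.38 of each other. The same order of groups is used below. Slc2a4, on chromosome 11 (69942539 to 69948188), averaged 9.39 ± 1.06, 9.77 ± 0.57 and 9.16 ± 0.67 at 16 weeks and 10.71 ± 1.32, 10.02 ± 0.93, 9.98 ± 0.82, 10.43 ± 1.46 and 9.72 ± 1.63 at 24 weeks. The spread of GLUT4 within groups exceeded that of GLUT1 in every group.

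Among the enzymes, Hk1 averaged 12.95 ± 0.29, 12.95 ± 0.14 and 13.04 ± 0.05 at 16 weeks and 12.99 ± 0.17, 12.89 ± 0.19, 13.06 ± 0.33, 12.98 ± 0.15 and 12.99 ± 0.30 at 24 weeks. Hk2, on chromosome 6 (82725025 to 82774454), averaged 8.23 ± 0.61, 8.69 ± 0.38 and 8.23 ± 0.36, then 9.26 ± 1.14, 8.88 ± 0.71, 8.74 ± 0.83, 9.28 ± 1.11 and 8.84 ± 1.42. Pfkm, on chromosome 15 (98092589 to 98132451), averaged 11.78 ± 1.03, 11.40 ± 0.20 and 11.32 ± 0.15, then 12.28 ± 1.49, 11.64 ± 0.95, 11.63 ± 0.48, 12.38 ± 1.14 and 12.01 ± 1.39. Hk2 and Pfkm had a standard deviation above 1 in several of the older groups. Pfkfb3, which makes the fructose 2,6-bisphosphate that activates phosphofructokinase, lies on chromosome 2 (11471433 to 11554077) and averaged 10.13 ± 0.59, 11.04 ± 0.67 and 10.48 ± 0.55, then 10.81 ± 0.82, 11.36 ± 0.85, 11.29 ± 0.59, 10.67 ± 0.63 and 10.49 ± 0.56. Aldoa, on chromosome 7 (126795234 to 126800751), averaged 15.83 ± 0.62, 15.67 ± 0.18 and 15.45 ± 0.07, then 16.14 ± 0.93, 15.87 ± 0.44, 15.81 ± 0.37, 16.01 ± 0.59 and 16.03 ± 0.94. Gapdh averaged from 11.25 (HFD-STZ, 16 weeks) to 11.85 (SD, 24 weeks) and Pkm from 14.14 to 14.65 in the same groups.

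For lactate, Ldha on chromosome 7 (46841475 to 46855627) averaged 14.08 ± 0.59, 14.04 ± 0.24 and 13.60 ± 0.17 at 16 weeks and 14.35 ± 0.90, 14.27 ± 0.64, 14.19 ± 0.29 and 14.13 ± 0.61 in the first 4 groups at 24 weeks, and ran from 13.50 through 13.63 to 15.99 in HFD-STZ-DR mice. Ldhb averaged 15.28 ± 0.33, 15.07 ± 0.23 and 15.06 ± 0.12, then 15.12 ± 0.30, 14.94 ± 0.20, 15.17 ± 0.36, 15.14 ± 0.23 and 15.26 ± 0.14. Slc16a1, on chromosome 3, averaged from 13.51 (SD, 16 weeks) to 13.95 (SD, 24 weeks), and Slc16a7, on chromosome 10 (125219270 to 125389465), averaged 8.50 ± 0.55, 8.90 ± 0.39 and 8.85 ± 0.45, then 8.90 ± 0.34, 9.12 ± 0.34, 8.91 ± 0.34, 8.74 ± 0.25 and 8.51 ± 0.26. At the entry of pyruvate, Pdk2 averaged from 12.46 (HFD-STZ, 16 weeks) to 12.83 (SD, 24 weeks), Pdha1, the catalytic subunit that the kinases phosphorylate, from 12.58 (HFD, 16 weeks) to 12.95 (SD, 24 weeks) and Mpc1 from 12.21 (HFD-STZ, 16 weeks) to 12.50 (SD, 24 weeks). The median standard deviation within groups over the 33 members was 0.37.

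One library stood apart. HFD-STZ replicate 7 at 24 weeks had the lowest median correlation with the other samples (0.941), and its sensory neuron score, the mean of Isl1, Prph and Snap25, was 13.46 against 6.51 to 7.86 in the others. Isl1, Prph and Snap25 reached 11.31, 14.55 and 14.53 there, and its deposited values for Scn10a and Avil were 53.4 and 60.31, which lie above 22 and were left out of the score. Of the 25 genes with a value over 22, 23 had it in this library. In this library 13 of the 33 members were above the other samples of the group by Dixon's test, among them members with known neuronal expression. That test was run on the members only, so the share of all genes is unknown. GLUT3 (Slc2a3) was 10.59, against 7.74 to 8.39 in the other HFD-STZ samples of that age. Eno2, the neuron-specific enolase, was 13.50 against 10.55 to 11.07. Aldoc was 12.06 against 7.34 to 8.37, and Pfkp, the platelet phosphofructokinase that neurons also use, was 13.32 against 10.34 to 11.49. Hk1 was 13.84 against 12.83 to 13.07 and Pkm 15.82 against 14.12 to 14.35. Its muscle score was 7.46 and its adipocyte score 11.33. The part of neuronal RNA in these values was not tested, and the results for the group are given with and without this library where it matters.

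**Figure D2:**
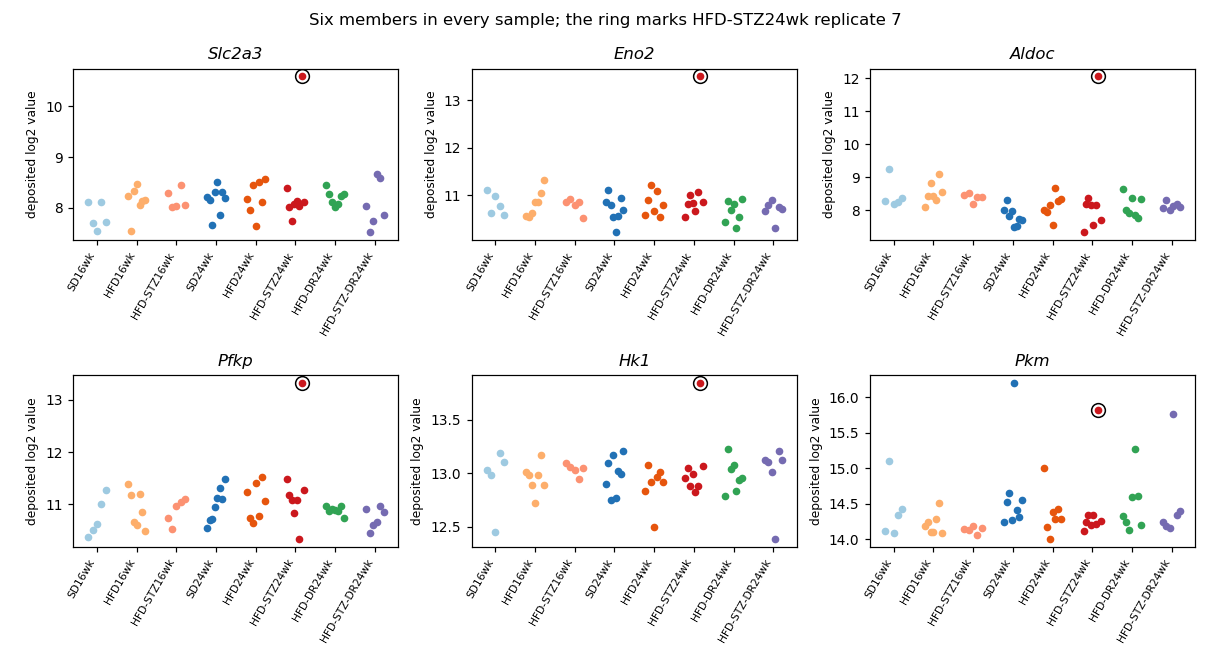
Deposited log2 values of Slc2a3, Eno2, Aldoc, Pfkp, Hk1 and Pkm in all 53 samples by group, 1 point per sample. The ringed point, HFD-STZ replicate 7 at 24 weeks, lies above the other HFD-STZ samples of that age in all 6 panels, at 10.59 for Slc2a3 and 13.50 for Eno2.

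At 16 weeks, the question was whether the high-fat diet, alone or with streptozotocin, altered these genes. No member passed an adjusted p of 0.05 against SD in either comparison (limma's moderated test over all genes, Benjamini-Hochberg adjustment): 0 of 33 in HFD, where 0.00557% of 17966 genes did, and 0 of 33 in HFD-STZ, where 0% of 17881 genes did. Between HFD and SD, 1 member was higher at an unadjusted p under 0.05 (background 4.98% of genes) and 0 were lower (3.57%), and 15 of 33 differences were above 0 (52.5% of all genes), with a median of -0.004 against 0.012 over all genes. Without SD replicate 2, with a muscle score of 13.11, 25 of 33 were above 0, and with both scores as covariates 7 of 33 were. The 1 member was Pfkfb3. Its values in SD mice were 9.61, 9.73, 9.85, 10.46 and 11.01, and in HFD mice ran from 10.25 through a median of 10.96 to 12.19. The groups overlapped, and the difference was 0.91 (95% CI 0.21 to 1.61, adjusted p = 0.509, limma). The adipocyte score was also higher by 1.82 in these HFD samples (exact permutation p = 0.0328, 0.0939 without SD replicate 1), and with that score in the model the Pfkfb3 difference was 0.61. The part of fat in the difference was not tested.

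In HFD-STZ mice of 16 weeks, 1 member was higher than in SD at an unadjusted p under 0.05 (background 3.99%) and 1 was lower (4.42%), and 8 of 33 differences were above 0 (54.3% of all genes), or 12 of 33 without SD replicate 2 or SD replicate 5. Slc2a3 was 7.54, 7.70, 7.73, 8.11 and 8.12 in SD and 8.02, 8.04, 8.05, 8.29 and 8.45 in HFD-STZ mice, a difference of 0.33. Mpc2, a subunit of the mitochondrial pyruvate carrier on chromosome 1 (165460637 to 165481214), was 11.54, 11.56, 11.86, 11.89 and 12.46 in SD and 11.35, 11.48, 11.49, 11.64 and 11.64 in HFD-STZ mice, a difference of -0.34 (adjusted p = 0.586 for both, limma). Both groups overlapped in each gene. Aldoa alone separated the groups, as it was 15.52, 15.54, 15.58, 15.59 and 16.94 in SD and 15.33, 15.42, 15.48, 15.51 and 15.51 in HFD-STZ mice (2.09% of all genes separated them). That difference of -0.38 had an unadjusted p of 0.139, and the SD sample at 16.94 had a muscle score of 13.11.

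Streptozotocin on the high-fat diet, compared with the high-fat diet alone at 16 weeks, gave 0 of 33 members past an adjusted p of 0.05 (0% of 18206 genes). At an unadjusted p under 0.05, 7 members were lower (background 2.89%) and 0 were higher (1.99%), and 6 of 33 differences were above 0 (50.6% of all genes) with a median of -0.112 against 0.002. Ldha had the smallest p. It was 13.40, 13.53, 13.55, 13.72 and 13.82 in HFD-STZ mice, and ran from 13.76 through 13.99 to 14.43 in HFD mice, so the groups just overlapped. The difference was -0.44 ± 0.11 (SE, unadjusted p = 0.00182, adjusted p = 0.987, limma). Mpc2, at 11.35 to 11.64 in HFD-STZ mice and 11.57 through 11.77 to 12.34 in HFD mice, differed by -0.34. Tpi1, triose phosphate isomerase, at 13.21 to 13.42 against 13.38 through 13.50 to 13.70, differed by -0.19, and all 3 had the same adjusted p. Hk2, Pfkl, Aldoa and Eno1 were the other 4. Leaving out 1 sample at a time left 3 to 9 members at an unadjusted p under 0.05 (share of all genes not counted), all lower. With all 8 groups in 1 fit there were 0 such members. Counting both directions, there were 3 with the muscle score as a covariate and 2 with both scores, where the median was -0.038. The adipocyte score differed by -1.03 between these groups (exact permutation p = 0.104) and the muscle score by -1.37 (exact permutation p = 0.163).

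At 24 weeks, again no member passed. Between HFD and SD there were 0 of 33 (0.121% of 18195 genes), and between HFD-STZ and SD 0 of 33 (0.0336% of 17850 genes). In HFD mice 0 members were higher at an unadjusted p under 0.05 (5.55% of genes) and 1 was lower (3.51%), and 8 of 33 differences were above 0 (52.0%) with a median of -0.144 against 0.008. That member was Pdhb, a subunit of the pyruvate dehydrogenase complex on chromosome 14 (8165996 to 8173025). Pdhb ran from 11.65 through 12.01 to 12.95 in SD and from 11.55 through 11.74 to 12.15 in HFD mice, a difference of -0.40 (adjusted p = 0.501, limma). The count above 0 changed with the samples used. Without SD replicate 5, the sample with a muscle score of 15.45, 15 of 33 differences were above 0. Among the 5 HFD and 3 SD samples scoring at most 10 for muscle, a limit set after the data were seen, 22 of 33 were.

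In HFD-STZ mice of 24 weeks, 0 members were higher (3.30%) and 2 were lower (2.69%) at an unadjusted p under 0.05, and 11 of 33 differences were above 0 (50.2%). Without SD replicate 5 this was 17 of 33, with a median of 0.007 in place of -0.137. Among the 4 HFD-STZ and 3 SD samples with a muscle score of at most 10 it was 29 of 33, with a median of 0.214 (share of all genes above 0 not counted). HFD-STZ replicate 7, with a muscle score of 7.46, is 1 of these 4 samples. The count of 29 therefore includes the library that stood apart, and no count without it is given for this restricted set. Slc2a1 ran from 13.91 through 14.28 to 14.64 in SD and from 13.37 through 13.82 to 14.35 in HFD-STZ mice, a difference of -0.38 (95% CI -0.72 to -0.04, adjusted p = 0.817, limma). Pdk1, an inhibitory kinase of pyruvate dehydrogenase on chromosome 2 (71873224 to 71903858), ran from 10.36 through 11.25 to 11.69 in SD and from 10.20 through 10.61 to 11.18 in HFD-STZ mice, a difference of -0.39 (adjusted p = 0.826). Both overlapped. The perineurial score, the mean of 3 genes, averaged 13.63 in SD and 13.01 in HFD-STZ mice and the fibroblast score 15.49 and 15.12, and the lowest Slc2a1 values, 13.37 and 13.42, were in the samples with the lowest perineurial scores, 11.19 and 12.11. The part of these cells in the difference was not tested. Without HFD-STZ replicate 7, 0 members were past an unadjusted p of 0.05 in this comparison and 7 of 33 differences were above 0. Against HFD at the same age there were 0 of 33 (0% of 18121 genes), with 0 higher (1.42%) and 1 lower (4.17%) at an unadjusted p under 0.05, again Pdk1 (-0.32), and 18 of 33 differences were above 0 (47.9% of all genes). Without HFD-STZ replicate 7, 0 members were past that level and 11 of 33 differences were above 0, and without HFD replicate 1 there were 27 of 33 above 0.

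Dietary reversal was compared with continued feeding of each diet. Reversal on the high-fat diet gave 0 of 33 members (0.0108% of 18479 genes), with 0 higher (2.15%) and 2 lower (4.57%) at an unadjusted p under 0.05, and 20 of 33 differences above 0 (49.4%). Without HFD-DR replicate 5, with a muscle score of 14.08, 10 of 33 were above 0 and the median turned from 0.025 to -0.036, and with the muscle score as a covariate 8 of 33 were, with a median of -0.148. Among the 3 HFD-DR and 5 HFD samples with a muscle score of at most 10 it was 3 of 33. In that fit 7 members were at an unadjusted p under 0.05 (share of all genes not counted). Slc16a7 ran from 8.35 through 8.77 to 8.99 in HFD-DR and from 8.78 through 9.09 to 9.61 in HFD mice, a difference of -0.38 (adjusted p = 0.673, limma). Pfkl ran from 11.55 through 11.75 to 12.06 in HFD-DR and from 11.62 through 12.12 to 12.74 in HFD mice, a difference of -0.32 (adjusted p = 0.722). The muscle score was higher by 2.40 in the HFD-DR samples (exact permutation p = 0.0804), and its part in the values was not tested.

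Reversal in the HFD-STZ model gave 0 of 33 members (0.0839% of 17868 genes), with 0 higher (1.96%) and 2 lower (4.51%) at an unadjusted p under 0.05, and 15 of 33 differences above 0 (51.9%). Pfkfb3 ran from 10.01 through 10.32 to 11.59 in HFD-STZ-DR and from 10.15 through 11.23 to 12.08 in HFD-STZ mice, a difference of -0.81 (95% CI -1.41 to -0.20, adjusted p = 0.504, limma). Slc16a7 ran from 8.02 through 8.57 to 8.73 in HFD-STZ-DR and from 8.34 through 8.99 to 9.40 in HFD-STZ mice, a difference of -0.40 (adjusted p = 0.65). The adipocyte score was -1.89 in the same comparison (exact permutation p = 0.00799). With it in the model, the differences were -0.18 for Pfkfb3 and 0.06 for Slc16a7. HFD-STZ-DR replicate 4, with a muscle score of 14.76, weighed on this comparison. Without it 5 members were lower at an unadjusted p under 0.05 (share of all genes not counted) and 5 of 33 differences were above 0. Without HFD-STZ replicate 7, 20 of 33 were above 0, the median was 0.059 in place of -0.011, and 117 genes in place of 15 passed the adjusted p of 0.05, 0 of them members.

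Compared with SD, reversed mice showed 0 of 33 members in HFD-DR (0% of 18151 genes) and 0 of 33 in HFD-STZ-DR (0% of 17897 genes). In HFD-DR 0 members were past an unadjusted p of 0.05 in either direction (3.71% higher and 1.43% lower), and 6 of 33 differences were above 0 (47.2%), or 18 of 33 without SD replicate 5 and 3 of 33 without SD replicate 6 or 7. In HFD-STZ-DR mice 3 of 33 differences were above 0 (47.7%), or 13 without SD replicate 5, 6 without HFD-STZ-DR replicate 3, 5 without SD replicate 2 and 23, with a median of 0.13, with the adipocyte score as a covariate. There 1 was higher (4.49%), Aldoc, on chromosome 11 (78322968 to 78327781), by 0.31, and 1 was lower (4.67%), Slc16a7, by -0.40, with an adipocyte score difference of -1.50 (exact permutation p = 0.0103). HFD-STZ-DR against HFD-DR gave 0 of 33 (0% of 18192 genes), with 0 higher (1.48%) and 0 lower (2.10%) at an unadjusted p under 0.05, and 12 of 33 differences above 0 (48.0%), or 6 without HFD-DR replicate 3, 7 without HFD-DR replicate 2, 18, with a median of 0.037, without HFD-DR replicate 5, and 23 with either score as a covariate. Without HFD-STZ-DR replicate 4, 4 were lower at an unadjusted p under 0.05 in each of the last 2 comparisons (share of all genes not counted). These comparisons share their control samples. The half-width of the 95% interval of a member's difference had a median of 0.355 for HFD against SD at 24 weeks and 0.49 for HFD-STZ-DR against SD. These intervals are for single genes before adjustment, and larger differences can go uncalled after adjustment over all genes.

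**Figure D3:**
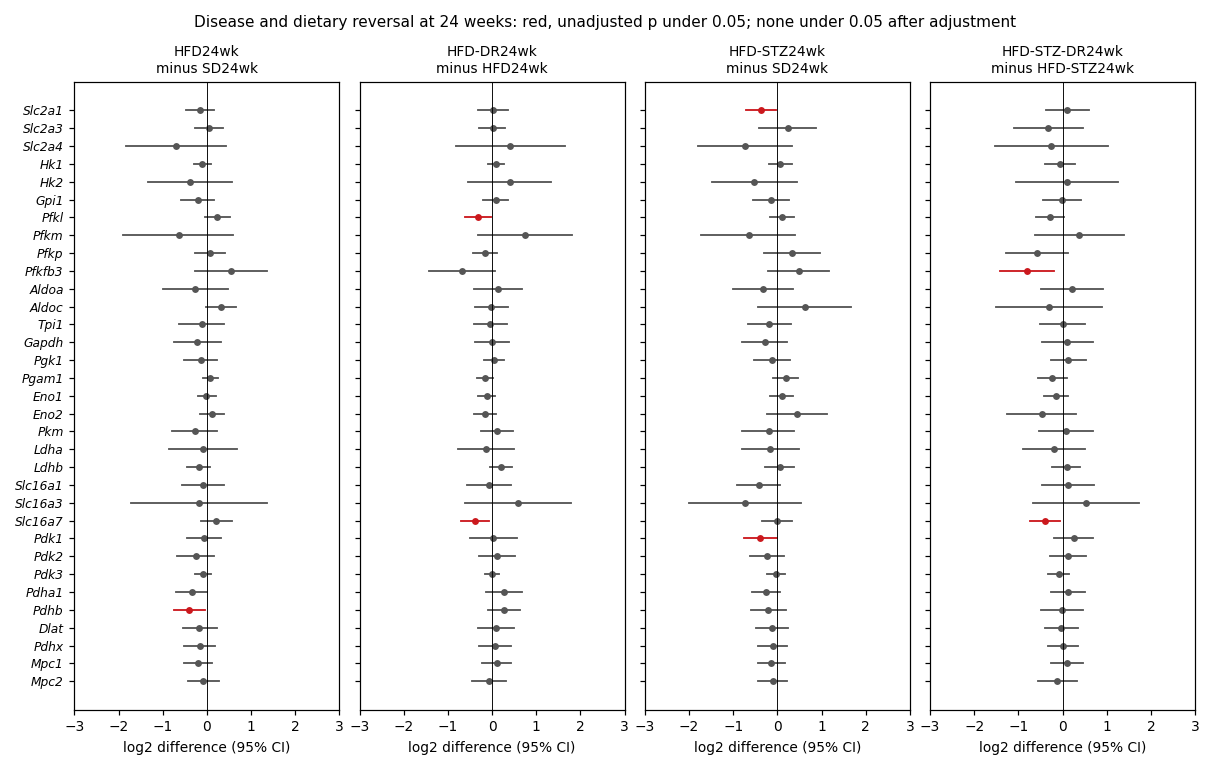
Difference in log2 value of each of the 33 members in 4 comparisons at 24 weeks, with 95% confidence intervals from limma; points left of 0 are lower in the first group named. Red marks an unadjusted p under 0.05, reached by 1, 2, 2 and 2 members from left to right, and 0 members passed after adjustment.

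Between 16 and 24 weeks, most members leaned upwards. In SD mice 0 of 33 passed (0% of 17796 genes), yet 29 of 33 differences were above 0 (52.9% of all genes), with a median of 0.243 against 0.013. Without the 24-week SD replicate 5, with a muscle score of 15.45, 23 of 33 were above 0 (51.8% of all genes) and the median was 0.082. With all samples of the 2 groups, 1 member was higher (5.43%) and 1 was lower (5.03%) at an unadjusted p under 0.05. Slc2a4 was 8.01, 8.65, 9.47, 10.30 and 10.49 at 16 weeks and ran from 8.67 through 10.88 to 13.06 at 24 weeks, a difference of 1.33 (adjusted p = 0.477, limma). Aldoc was 8.18, 8.24, 8.28, 8.38 and 9.25 at 16 weeks and ran from 7.48 through 7.78 to 8.30 at 24 weeks, a difference of -0.65 (adjusted p = 0.353), and the groups overlapped. The adipocyte score was higher by 1.71 at 24 weeks (exact permutation p = 0.0396, 0.127 without the 16-week SD replicate 1) and the muscle score by 2.16 (p = 0.217). With both scores in the model, 10 of 33 differences were above 0, the median was -0.12 and that of Slc2a4 was -0.35.

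In HFD mice, 0 of 33 members passed between the ages (0.0653% of 18374 genes), 1 was higher (2.68%) and 1 was lower (3.22%) at an unadjusted p under 0.05, and 23 of 33 differences were above 0 (55.6%). Gapdh ran from 11.17 through 11.38 to 11.61 at 16 weeks and from 11.34 through 11.51 to 12.13 at 24 weeks, a difference of 0.26, and Aldoc from 8.09 through 8.44 to 9.11 and from 7.54 through 8.17 to 8.68, a difference of -0.40 (adjusted p = 0.837 for both, limma). The ages overlapped in both. In HFD-STZ mice 0 of 33 passed (0% of 17966 genes). At an unadjusted p under 0.05, 8 members were higher (5.84%) and 0 were lower (6.68%), and 29 of 33 differences were above 0 (50.5%) with a median of 0.226 against 0.003. Ldha ran from 13.71 through 14.22 to 14.61 at 24 weeks, against 13.40 to 13.82 at 16 weeks, a difference of 0.59 ± 0.13 (SE, unadjusted p = 0.000636, adjusted p = 0.279, limma; exact permutation p = 0.00311). Mpc2 ran from 11.70 through 11.85 to 12.21 at 24 weeks and did not overlap the 16-week values of 11.35 to 11.64 (1.11% of all genes separated the groups), a difference of 0.40 (adjusted p = 0.279). Pfkfb3 was 9.73, 10.37, 10.51, 10.56 and 11.26 at 16 weeks and ran from 10.15 through 11.23 to 12.08 at 24 weeks, a difference of 0.81. Pfkl, Aldoa, Tpi1, Gapdh and Pdhx were the other 5. This comparison shares its 16-week HFD-STZ samples with the one against HFD at 16 weeks, where Ldha, Mpc2, Pfkl, Aldoa and Tpi1 were lower. The lower and the higher values are therefore not independent results. The 16-week HFD-STZ group also had the lowest mean muscle score of all groups, 6.91, whose part was not tested. Leaving out 1 sample of this comparison left 3 to 13 higher, and without HFD-STZ replicate 7 there were 13 higher and 1 lower (share of all genes not counted). Without that library 26 of 33 differences were above 0 (47.7% of all genes), and the median was 0.147 in place of 0.226. With both scores in the model, 26 of 33 differences were above 0 and the median was 0.316. In the other 12 comparisons the groups of every member overlapped, where 0.00551% to 0.562% of genes did not.

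The 3 differences of differences, for the HFD effect with age, the HFD-STZ effect with age and the reversal effect with streptozotocin, each had 0 of 33 members past an adjusted p of 0.05 (0% of genes in each) and 0 at an unadjusted p under 0.05 (1.67%, 4.68% and 1.71% of genes). The smallest p was 0.0927, for Pdk1 in the HFD-STZ effect with age. A further 51 genes of glycolysis and its regulation were listed, of which 42 to 44 were tested in each comparison and 0 were past an adjusted p of 0.05 in any of the 14. The smallest unadjusted p was that of Slc2a6 in SD mice with age (-0.65, unadjusted p = 0.000196, adjusted p = 0.223, limma). Hk3, a hexokinase of leukocytes, differed by 0.96 between HFD and SD at 24 weeks (adjusted p = 0.125) and by -1.05 between HFD-DR and HFD (adjusted p = 0.27), 2 comparisons that share the HFD samples. Slc16a12, a creatine carrier, differed by -2.10 between HFD-STZ-DR and HFD-STZ (adjusted p = 0.134).

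Members moved with the muscle content of the samples. Over all 53 samples with group in the model, 18 of 33 members rose with the skeletal muscle score at an adjusted p under 0.05 (8.20% of 18064 genes rose) and 0 fell (0.637%), 8.84% of genes passing in all. Slc16a3, on chromosome 11 (120948480 to 120960868), rose by 0.390 per unit of score, Pfkm by 0.345, Slc2a4 by 0.280 and Hk2 by 0.251, followed by Aldoa (0.192), Ldha (0.172), Gapdh (0.138), Tpi1 (0.119), Pkm (0.117) and Pdk2 (0.115). The pyruvate carrier and the pyruvate dehydrogenase subunits rose by 0.075 (Dlat) to 0.099 (Mpc2), as did Gpi1 and Pgk1 by 0.074 and 0.085. Slc2a1 (-0.052), Slc16a1 (-0.052), Hk1 (-0.032), Pfkl (-0.020), Eno1 (-0.004) and Pgam1 (-0.012) did not pass. With the adipocyte score as a further covariate, Slc2a1 fell by 0.057 per unit of muscle score (adjusted p = 0.0292, limma). Among the other pathway genes 15 of 44 rose, led by Eno3 (0.817) and Pgam2 (0.805), the muscle forms of enolase and phosphoglycerate mutase.

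This relation rested on samples with much muscle. Among the 33 samples with a score of at most 10, a limit set after the data were seen, 0 of 33 members passed (0.189% of genes rose), and Pfkm had a slope of 0.074, Slc16a3 of 0.073 and Aldoa of 0.053. In the highest sample, SD replicate 5 at 24 weeks with a score of 15.45, Slc16a3 was 12.46, against 6.94 to 7.64 in the other SD samples of that age, Pfkm 15.60 against 11.25 to 13.23 and Aldoa 18.32 against 15.37 to 16.28. HFD-STZ-DR replicate 4, with a score of 14.76, had Slc16a3 at 11.28 against 6.72 to 7.45 and Hk2 at 11.67 against 7.78 to 8.63.

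**Figure D4:**
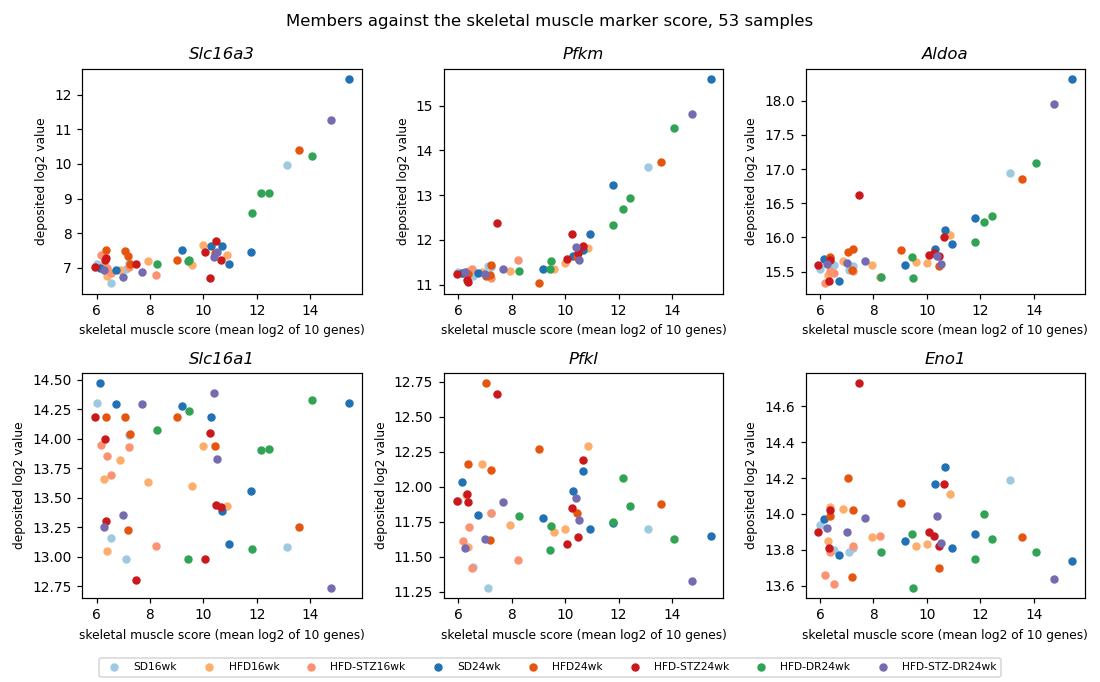
Deposited log2 values of 6 members against the skeletal muscle score (mean log2 value of 10 genes), 1 point per sample and 1 colour per group. Slc16a3, Pfkm and Aldoa are nearly level up to a score of about 10 and climb to 12.46, 15.60 and 18.32 at 15.45, whereas Slc16a1, Pfkl and Eno1 show no such climb.

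With fat content, the share of members that moved was close to that of all genes. With group in the model, 9 of 33 members rose with the adipocyte score (16.6% of 18067 genes rose) and 3 fell (14.8%) at an adjusted p under 0.05. Slc2a4 rose by 0.678 per unit of score, Hk2 by 0.421, Pfkfb3 by 0.349, Slc16a7 by 0.253 (adjusted p = 4.36e-09, limma), Ldha by 0.222, Pdk1 by 0.194, Slc16a1 by 0.179, Slc2a1 by 0.137 and Dlat by 0.109. GLUT4 and Hk2 are the insulin-responsive transporter and hexokinase of adipocytes and muscle. Aldoc fell by 0.227, Eno2 by 0.187 and Ldhb by 0.106 per unit. Together these are 12 of 33, where 31.5% of all genes passed. HFD-STZ replicate 7 at 24 weeks had the lowest adipocyte score of its group, 11.33. It also had that group's highest Aldoc (12.06), Eno2 (13.50) and Ldhb (15.76), and the slopes of these genes without it are not given. With a muscle score of 7.46, it is also in the restricted set that follows. Among the 33 samples with a muscle score of at most 10, 10 members passed, all among the 12 above. Of these, 8 rose, where 15.3% of all genes did, and 2 fell, with slopes of 0.600 for Slc2a4, 0.352 for Hk2, 0.318 for Pfkfb3 and 0.243 for Slc16a7, and -0.224 for Eno2 and -0.126 for Ldhb. Among the other pathway genes 16 of 44 rose, led by Pck1 (1.032), which makes glycerol 3-phosphate precursors in fat, and Slc16a12 (0.833).

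**Figure D5:**
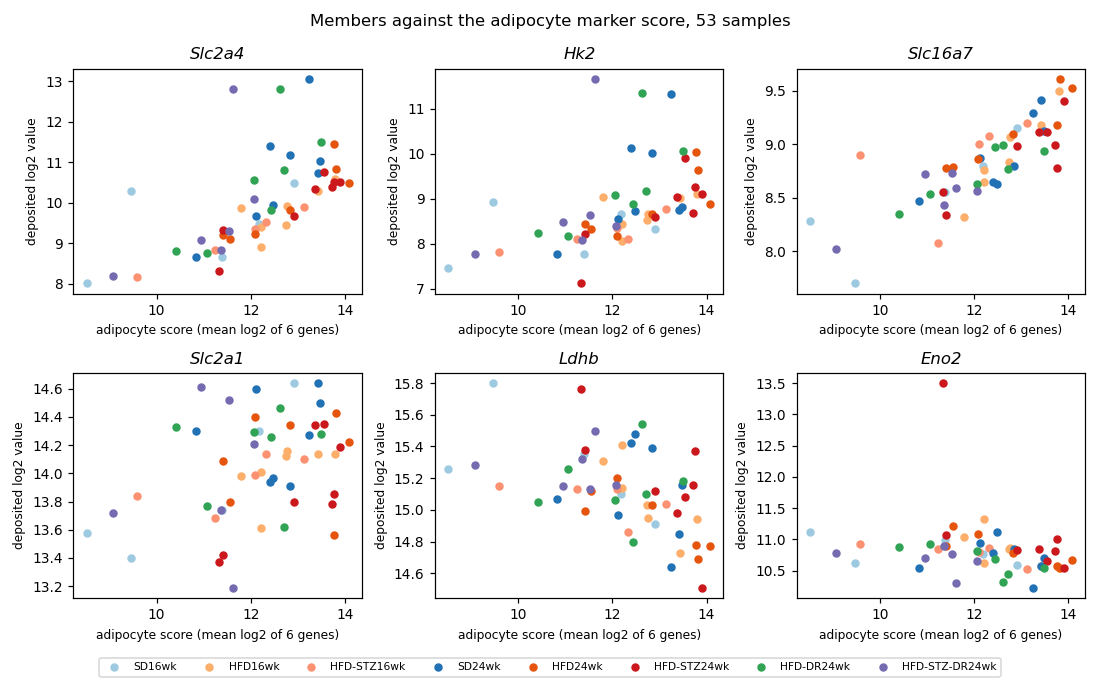
Deposited log2 values of 6 members against the adipocyte score (mean log2 value of 6 genes), 1 point per sample and 1 colour per group. Slc2a4, Hk2, Slc16a7 and Slc2a1 are higher and Ldhb and Eno2 lower in samples with a higher score, with slopes of 0.678, 0.421, 0.253, 0.137, -0.106 and -0.187 per unit within groups. The highest Eno2 point, 13.50 at a score of 11.33, is HFD-STZ replicate 7 at 24 weeks.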

How the data were processed

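Per the labels and the paper, RNA of 53 sciatic nerves was sequenced and the reads were aligned to mm10 with HISAT2 and counted per gene with featureCounts, and DESeq2 was used by the authors. Each deposited value is a log2 expression value of 1 gene in 1 sample, and how the authors normalized it is not given in the sources used here. They are not counts, so the depth behind each value is unknown and limma 3.58.1 in R 4.3.3 was used. The labels name Trizol and a TruSeq mRNA kit and the paper another extraction and kit, so the library kit is uncertain. The labels' library numbers form 8 consecutive runs, each group spread over 5 to 8 of them. Nothing in the labels says which animal a sample came from, so p-values measure the spread between these samples.

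Genes were tested when their log2 values averaged 3.32 or more (10 on the linear scale) in the samples compared, without the 25 genes that exceeded 22 in a sample, and all p-values of a fit were corrected together (Benjamini-Hochberg). Comparisons used the samples of 2 groups, interactions those of 4 groups, and slopes all 53 samples with group as a factor and the marker genes left out. For single members and scores, exact 2-sided permutation tests were run. Members named with values are those past an adjusted p of 0.05, and per comparison up to 3 in each direction with the smallest unadjusted p under 0.05, with 16 members always given by group. The members, the marker genes and the lists were chosen with earlier results of these data known. Alternatives were no filter, a minimum in every sample, all 8 groups in 1 fit, library-number runs as a covariate, robust or trendless variance priors, genes above 22 kept, median centring, marker scores as covariates and leaving out each sample. Restriction to a muscle score of at most 10 was added after the data were seen. Positions come from GENCODE M21, where Aldoa has a pair of entries of which the first was used, and promoters from RefSeq GRCm38.p6. The fits were checked on simulated data. Python 3.11.15, numpy 2.4.6 and matplotlib 3.10.9 were used.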

Additional observations from a re-analysis of the deposited data

Results flagged for a closer look

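Dixon's test was run for each member in each group of 5 to 8 samples, 264 sets in all. In 75 sets, 1 sample lay farther from the others than the test allows at the 95% level. These sets share samples and only members were tested, so the count is not set against a chance rate. The flagged values are log2 values and fall in 13 samples. Beside each sample stands its skeletal muscle score, whose part in the values was not tested.

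In HFD-STZ-DR replicate 4 at 24 weeks, with a muscle score of 14.76, Hk2 (11.67), Gpi1 (13.54), Pfkm (14.81), Pfkfb3 (11.59), Aldoa (17.95), Tpi1 (14.98), Gapdh (13.25), Pgk1 (10.73), Pkm (15.77), Ldha (15.99), Slc16a3 (11.28), Pdk2 (13.85), Pdha1 (13.87), Pdhb (13.00), Dlat (12.69), Pdhx (11.35), Mpc1 (13.38) and Mpc2 (13.01) stood above the other samples of the group, and Hk1 (12.39) stood below the other samples of the group. In HFD-STZ replicate 7 at 24 weeks, with a muscle score of 7.46, Slc2a3 (10.59), Hk1 (13.84), Gpi1 (13.54), Pfkp (13.32), Aldoc (12.06), Tpi1 (14.28), Pgk1 (10.38), Pgam1 (13.44), Eno1 (14.73), Eno2 (13.50), Pkm (15.82), Pdk3 (10.71) and Pdhb (12.79) stood above the other samples of the group. In SD replicate 5 at 24 weeks, with a muscle score of 15.45, Gpi1 (13.86), Pfkm (15.60), Pfkfb3 (12.51), Aldoa (18.32), Tpi1 (15.32), Pgk1 (10.95), Pkm (16.20), Ldha (16.46), Slc16a3 (12.46), Pdk2 (14.03), Pdha1 (13.88) and Dlat (12.97) stood above the other samples of the group. In SD replicate 2 at 16 weeks, with a muscle score of 13.11, Pfkm (13.63), Aldoa (16.94), Aldoc (9.25), Tpi1 (14.26), Gapdh (12.26), Pgk1 (10.24), Slc16a3 (9.98) and Pdk2 (13.01) stood above the other samples of the group. In HFD-DR replicate 5 at 24 weeks, with a muscle score of 14.08, Gpi1 (13.29), Pkm (15.27), Pdk2 (13.84), Pdha1 (13.96), Pdhb (12.92), Dlat (12.89) and Pdhx (11.41) stood above the other samples of the group. In HFD replicate 1 at 24 weeks, with a muscle score of 13.58, Pfkm (13.75), Aldoa (16.85), Pkm (15.00), Slc16a3 (10.39) and Pdk2 (12.96) stood above the other samples of the group. In HFD replicate 6 at 16 weeks, with a muscle score of 10.87, Pfkm (11.81), Aldoa (16.04), Pgk1 (10.09) and Pdk2 (12.75) stood above the other samples of the group. In HFD replicate 7 at 16 weeks, with a muscle score of 6.38, Slc2a1 (13.61) and Pdk1 (9.71) stood below the other samples of the group. In SD replicate 3 at 16 weeks, with a muscle score of 6.54, Hk1 (12.45) stood below the other samples of the group. In HFD replicate 4 at 24 weeks, with a muscle score of 9.02, Hk1 (12.50) stood below the other samples of the group. In HFD-DR replicate 7 at 24 weeks, with a muscle score of 9.44, Pfkp (10.73) stood below the other samples of the group. In HFD-STZ replicate 1 at 16 weeks, with a muscle score of 8.23, Slc16a7 (8.08) stood below the other samples of the group. In HFD-STZ replicate 3 at 16 weeks, with a muscle score of 6.39, Pdhb (11.73) stood above the other samples of the group.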

How the results depend on the processing

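No paired analysis was possible because the labels carry no replicate numbers, and numbers were given in accession order. The runs of library numbers in the labels were used as a block in the fit of all 8 groups: 0 members passed in any comparison, and over all genes the calls moved from 45 to 126 for SD between the ages, and by over 1.5 times also for HFD-DR against HFD (18 to 30), HFD (9 to 23) and HFD-STZ (13 to 30) between the ages, HFD against SD at 16 weeks (7 to 17) and at 24 weeks (68 to 104), HFD-STZ against HFD at 24 weeks (1 to 2) and HFD-STZ-DR against SD (1 to 0). Samples of different groups had deviations from their group means that correlated by a median of 0.052 (-0.503 to 0.760) within a run and -0.010 between runs. The count of 0 of 33 members past an adjusted p of 0.05 was the same in all 14 comparisons and 3 interactions under every alternative run, leaving out each sample included, with the smallest adjusted p of any member at 0.196. With the adipocyte score as a covariate, Slc16a7 differed by 0.06 between HFD-STZ-DR and HFD-STZ, and with both scores by 0.09, and by 0.01 between HFD-STZ-DR and SD, and Slc2a4 by -0.35 between the ages in SD mice, each with the opposite sign to that without covariates. The count of members past an adjusted p of 0.05 on the muscle score, in either direction, was 18 and stayed at 17 to 19 under the other alternatives. With the adipocyte score as a covariate 18 rose and 1 fell. The count was 0 among samples with a muscle score of at most 10, where fewer samples entered the fit. There the slopes of Pdk2 (-0.003), Hk2 (-0.027), Mpc2 (-0.014), Pdhx (0.000), Pdha1 (-0.003), Slc2a4 (-0.084) and Dlat (-0.016) were at or below 0 when rounded. The count on the adipocyte score was 12, and 9 to 16 otherwise. Dlat lost its call on the adipocyte score in 23 of the 53 fits without 1 sample. Without 1 sample, differences in the muscle score ran from -0.22 to 1.56 for HFD against SD at 16 weeks, -1.58 to 0.20 for HFD-STZ against SD at 16 weeks, -0.65 to 0.56 for HFD-STZ against HFD at 24 weeks, -0.07 to 1.63 for HFD-STZ-DR against HFD-STZ, -1.78 to 0.04 for HFD-STZ-DR against SD and -0.39 to 0.86 for HFD between the ages. Those in the adipocyte score ran from -0.06 to 0.42 for HFD against SD at 24 weeks, -0.03 to 0.44 for HFD-STZ against HFD at 24 weeks and -0.13 to 0.32 for HFD between the ages. The cause of these changes was not tested. With depth unknown, only the spread between samples limits the precision.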
